A study of Macaca mulatta with 24 samples.

Results

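Gene expression in whole blood of rhesus macaques was compared between day 5 and day 3 after total body irradiation with 4 Gy, using the 6 arrays of day 5 (replicates 1, 2, 3, 4, 6 and 7) and the 4 arrays of day 3 (replicates 1, 2, 4 and 7), which are 10 of the 24 arrays of the series. The other arrays were 7 from before irradiation and 7 from day 7. The members of the comparison were chosen by the day in the array titles. All animals of both days had received the same dose, so the comparison holds no unirradiated blood. The labels name X-rays and the methods name gamma rays of a cobalt source. The animals were adult macaques of both sexes. Replicates 1, 2 and 4 of day 3 and replicates 1 to 4 of day 5 were male by the labels, and replicate 7 of day 3 and replicates 6 and 7 of day 5 were female. Blood was stabilized in PAXgene tubes, and globin transcripts were depleted from the RNA with a human GLOBINclear kit before labelling, so that the globin levels below are what was left after depletion. The question was which transcripts still differed between these days within the first week after exposure.

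Whole blood RNA is a mixture of the RNA of every circulating cell. Red cells and platelets have no nucleus: young red cells (reticulocytes) keep globin and heme synthesis messages for a short time after they leave the marrow, and platelets carry messages made by megakaryocytes. Marrow precursors divide and are sensitive to radiation, B cells are among the most sensitive circulating cells, and cells with damaged DNA raise the cell-cycle inhibitor CDKN1A.

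The values below are log2 of the processed signal of the scanner software, shifted so that all arrays share a median. Levels of different probes are not comparable, and a log2 difference is always day 5 minus day 3. Of 43603 probes, 27133 cleared the background (the scanner's well-above-background mark on 4 or more of the 24 arrays) and were tested with limma. They covered 10883 genes, each described by its brightest probe unless stated. At day 3 the mark was carried by 53.9 to 57.6% of an array's probes, and at day 5 by 51.0 to 61.2%. The number of arrays limits the precision. Of 45 defining markers of blood cell types, 41 were tested and 32 were well above background on all 10 arrays. The red cell markers CA1 (carbonic anhydrase 1) and SLC4A1 (the band 3 anion exchanger) were above background on 0 and 1 of these arrays, and the neutrophil precursor protease CTSG on 0. CD3E, CD8A and CSF1R were not analysed here.

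All 10 arrays were scanned in the same session but lay on 3 slides. Slide 4 held replicates 1 and 2 of day 3 and replicates 6 and 7 of day 5, slide 5 held replicates 1 to 4 of day 5, and slide 6 held replicates 4 and 7 of day 3. Within slide 4 the day 3 animals were male and the day 5 animals female, so sex and day cannot be told apart there. Single arrays stood apart in part of their genes. On the day 5 array of replicate 6 all 13 tested skeletal muscle genes, a set chosen after its values were seen, had their highest level of the 10 arrays, with a mean of 13.8 against 7.13 to 8.08 on the others. On the day 3 array of replicate 2, 366 probes were more than 2 log2 units above every other day 3 array, against 39 to 87 on the other day 3 arrays.

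**Figure D1:**
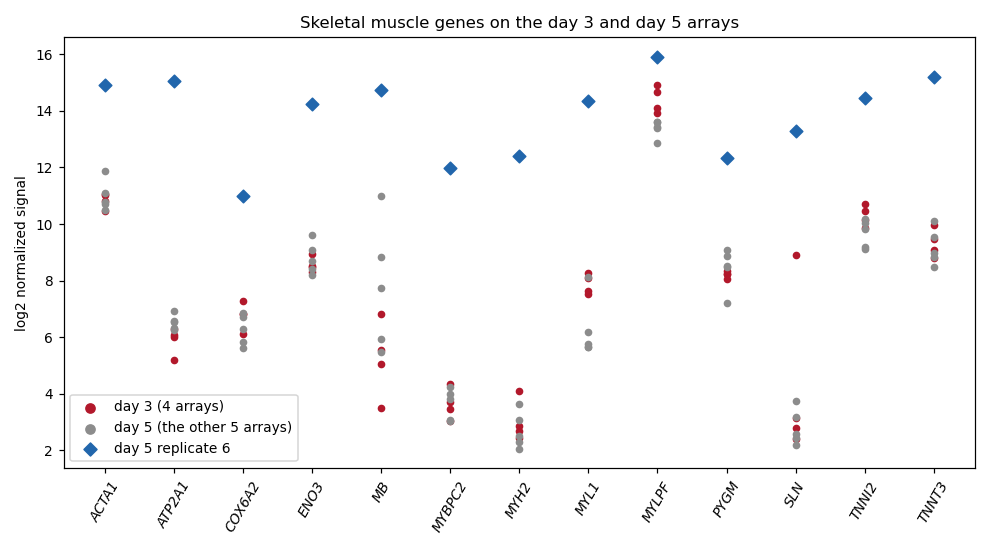
Log2 levels of 13 skeletal muscle genes (vertical axis, log2 processed signal) on the 4 day 3 and 6 day 5 arrays, with each point the level of 1 gene on 1 array, red circles for day 3, blue diamonds for day 5 replicate 6 and grey circles for the other day 5 arrays. On the day 5 array of replicate 6 every one of these genes lay above its level on the other 9 arrays, and the mean was 13.8.

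At an adjusted p under 0.005, 5 probes fell and none rose from day 3 to day 5 (limma, two-sided, Benjamini-Hochberg over 27127 probes). The 5 are 0.0184% of the probes tested for a fall, against 0 for a rise. Those described here represent PAQR9, HBB, STRADB and PPBP. In whole blood, fewer cells of a type and less RNA per cell cannot be told apart. At an unadjusted p under 0.05, 1073 probes were higher (3.96%) and 1654 lower (6.1%), and the days did not overlap in 251 higher (0.942%) and 559 lower probes (2.1%). In these 5 probes every day 5 array lay below every day 3 array, and all 4 same-numbered differences were below 0. At an adjusted p under 0.05, 48 probes were lower and none higher, which is 0.177% of the probes tested. The 48 carried 37 distinct gene symbols, of which 15 (40.5%) belong to the lists of red cell and platelet genes used below, as do 129 of all 10883 tested genes (1.19%). Members of these lists were chosen with earlier results of these data known, so the shares are a description and not a test. Over all tested probes the median log2 difference was 0.02.

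The arrays carry 60-base oligonucleotides, whose positions are given by the design on the rhesus assembly rheMac2. The PAQR9 probe lies at chr2:144909479-144909538, the PPBP probe at chr5:55664003-55664062 and the STRADB probe at chr12:65233573-65233633, all on the plus strand. The STRADB interval, as the design gives it, is slightly longer than the 60 bases of its probe. Whether they lie in coding sequence was not analysed here. HBB belongs to a family of similar globin chains, and how far its probe tells them apart was not tested.

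HBB, the adult beta chain of hemoglobin, read 18.20, 18.38, 18.16 and 17.55 on the day 3 arrays of replicates 1, 2, 4 and 7, and ran from 14.71 through a median of 15.02 to 15.78 at day 5. It fell by 2.93 on the log2 scale (SE 0.26, limma adjusted p = 0.00284), a 7.64-fold lower signal. No day 5 array came within 1 log2 unit of a day 3 array. PAQR9, a membrane protein of the progestin and adipoQ receptor family, read 10.51, 10.57, 9.43 and 11.08 at day 3 and ran from 6.39 through 6.72 to 7.29 at day 5. It fell by 3.60 (SE 0.31, limma adjusted p = 0.00284), a 12.1-fold lower signal. Before irradiation PAQR9 ran from 13.86 to 15.86, above every array of both days. STRADB, a pseudokinase abundant in late red cell precursors, read 10.67, 10.37, 10.45 and 10.17 at day 3 and ran from 7.60 through 8.17 to 8.54 at day 5. It fell by 2.25 (SE 0.20, limma adjusted p = 0.00284), a 4.75-fold lower signal. A second STRADB probe differed by −2.40 with an adjusted p of 0.0306 in limma.

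PPBP, the platelet basic protein stored in platelet granules, read 17.94, 17.36, 17.75 and 17.19 at day 3 and ran from 15.36 through 15.52 to 15.86 at day 5. It fell by 1.99 (SE 0.19, limma adjusted p = 0.00427), a 3.98-fold lower signal. The day 5 arrays of PPBP lay close together, and all were below the lowest day 3 array.

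**Figure D2:**
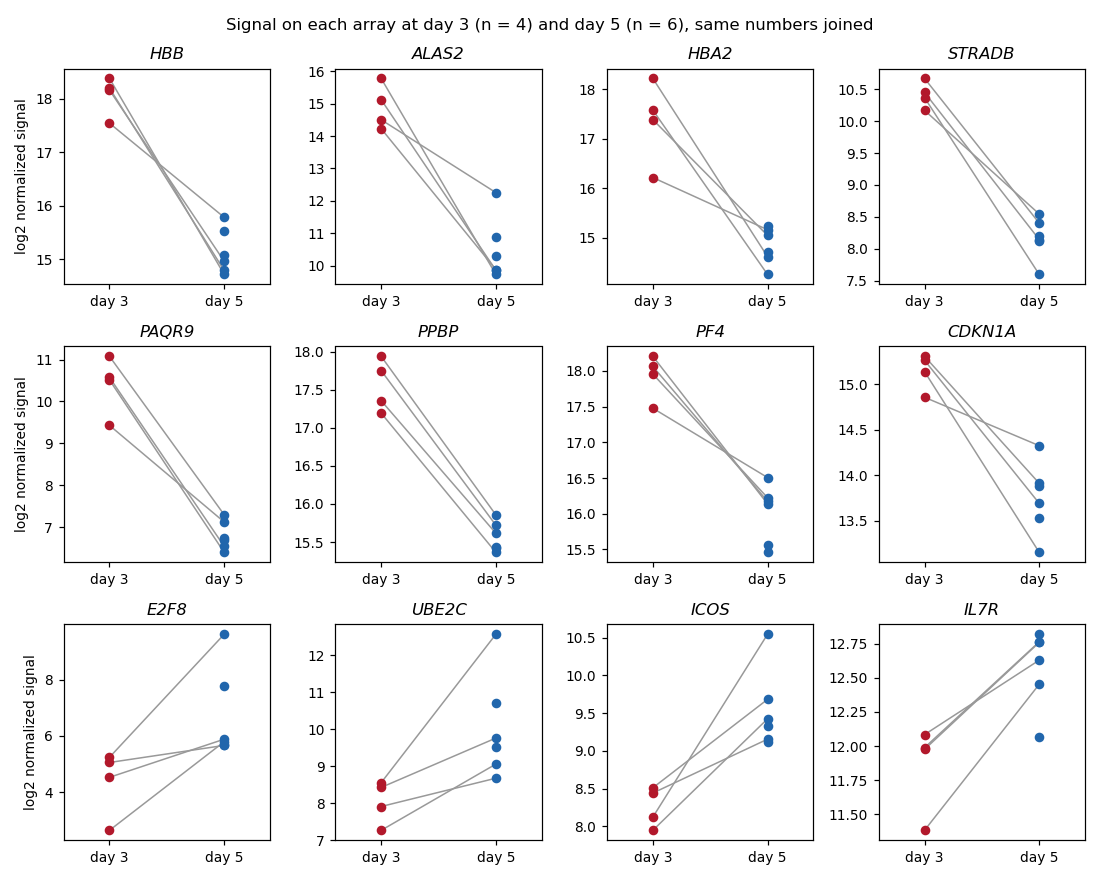
Log2 level (vertical axis, log2 processed signal) of 4 called genes (PAQR9, HBB, STRADB and PPBP) and of selected other genes at day 3 (red) and day 5 (blue), with 1 point per array and grey lines that join arrays of the same replicate number. HBB lay between 17.55 and 18.38 at day 3 and between 14.71 and 15.78 at day 5.

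The replicate numbers paired the arrays, and with the number as a fixed block no probe passed (limma adjusted p = 0.0762 for PAQR9, HBB, STRADB and PPBP). That fit called 0 probes at either threshold, with 4312 at an unadjusted p under 0.05, while with the number as a random block 15 probes passed at 0.005 and 442 at 0.05 (380 of these lower and the rest higher), among them PAQR9, HBB, STRADB and PPBP with adjusted p from 0.000668 to 0.000886. With the fixed block the log2 differences were −3.56 for PAQR9, −3.01 for HBB, −2.24 for STRADB and −1.92 for PPBP. Within slide 4, the only slide with both days, the differences were −3.53, −2.86, −2.19 and −2.25 in the same order, and between slides 5 and 6 they were −3.57, −2.86, −2.23 and −1.82. With the slide as a block 0 probes passed at either threshold (lowest limma adjusted p 0.249, 1941 probes at an unadjusted p under 0.05). Background correction by normexp changed the sizes more, to −1.86 for PAQR9, −3.42 for HBB, −1.35 for STRADB and −2.49 for PPBP (limma adjusted p = 0.343, 0.301, 0.251 and 0.447).

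**Figure D3:**
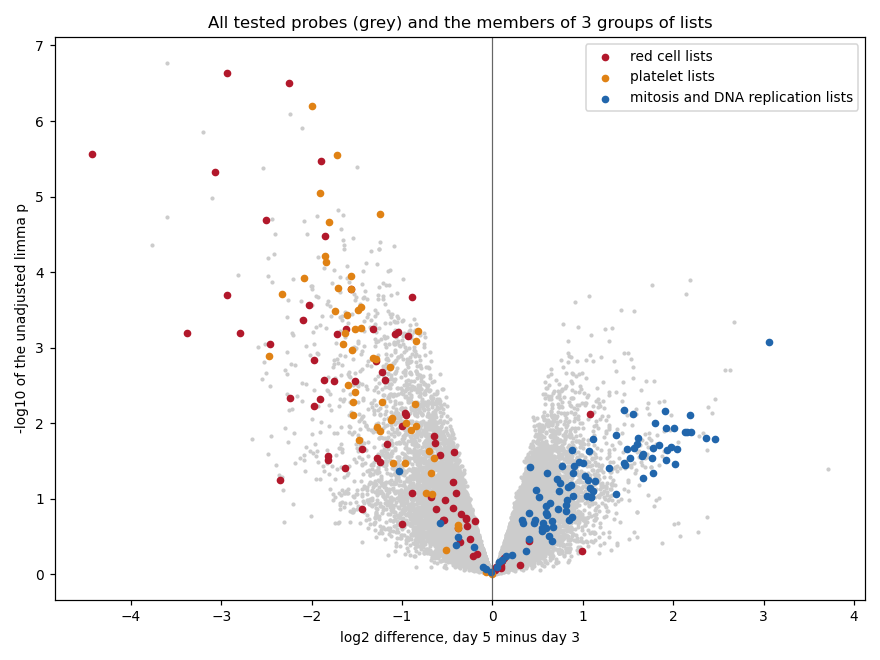
Log2 difference of day 5 minus day 3 (horizontal axis) against −log10 of the unadjusted limma p (vertical axis) for the tested probes (grey), with genes of the red cell lists in red, of the platelet lists in orange and of the mitosis and DNA replication lists in blue. All 5 called probes lie on the side of lower signal at day 5.

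Of the red cell genes, more were lower than higher at day 5. The list of globin chains and heme synthesis had 17 tested genes with a median log2 difference of −1.28, against −0.01 over all genes. In it 10 were lower and 0 higher at an unadjusted limma p under 0.05, where 7.46% of all genes were lower and 3.66% higher. In 7 genes (ALAS2, HBM, HBB, HBA2, AHSP, HBA1 and HBQ1) every day 5 array lay below every day 3 array, where 2.64% of all genes separated in that direction and 0.786% in the other. The genes above 0 were FLVCR1 at 0.03, a heme exporter, and SLC25A37 at 0.40, the mitochondrial iron importer mitoferrin. These 2 were named after their values were seen.

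ALAS2, the first and rate-limiting enzyme of heme synthesis in red cell precursors, had the largest log2 difference among the named genes. It read 15.13, 15.79, 14.51 and 14.23 at day 3 and ran from 9.72 through 10.08 to 12.25 at day 5. The difference was −4.43 (SE 0.50, limma adjusted p = 0.00841), with the highest day 5 array still about 2 log2 units below the lowest day 3 array. HBA2, an alpha chain of hemoglobin, read 17.58, 18.22, 17.39 and 16.22 at day 3 and ran from 14.26 through 14.88 to 15.25 at day 5, a difference of −2.51 (SE 0.35, limma adjusted p = 0.0234). A second probe of HBA2, well above background on all 10 arrays, differed by only −0.067 (SE 0.24, adjusted p = 0.947) and overlapped. HBM, the mu globin chain, differed by −2.94 (adjusted p = 0.0641), and AHSP, the chaperone of free alpha chains, by −2.46 (adjusted p = 0.106). In both the days did not overlap. Fetal and embryonic chains gave weaker separation, with HBE1 at −1.28 and HBG2 at −2.35, named after their values were seen.

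The list of red cell membrane and skeleton genes had 21 tested genes with a median difference of −1.45. At an unadjusted p under 0.05, 11 were lower and 0 higher, against 7.46% and 3.66% of all genes. The days separated in 4 of the 21 (EPB42, ICAM4, ANK1 and ADD1), all lower, against 2.64% of all genes. EPB42, protein 4.2 that ties band 3 to the membrane skeleton, read 7.06, 10.18, 7.55 and 8.95 at day 3 and ran from 3.00 through 5.11 to 6.35 at day 5, a difference of −3.38 (SE 0.72, limma adjusted p = 0.0954). The day 3 levels of EPB42 were spread over 3 log2 units, with replicate 2 the highest. At day 5 EPB42 was well above background on 4 of the 6 arrays. TMOD1, the tropomodulin that caps actin filaments, differed by −2.24 and overlapped between days, with 2 of the 6 day 5 arrays well above background, and ICAM4, the Landsteiner-Wiener blood group antigen, by −2.03 without overlap.

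Of 40 tested erythroid transcription factors and enzymes, 24 were lower and 1 higher at an unadjusted p under 0.05, and the median difference was −0.96. For all genes the shares were 7.46% lower and 3.66% higher. The days separated in 14 of the 40, all lower, against 2.64% of all genes. KLF1, the transcription factor that turns on adult globin and many membrane genes, read 6.97, 10.33, 7.30 and 7.68 at day 3 and ran from 4.54 through 5.37 to 5.84 at day 5. It differed by −2.79 (SE 0.59, limma adjusted p = 0.0954), and replicate 2 was again the highest day 3 array. At day 5 it was well above background on 3 of the 6 arrays. The exception was MYB, a factor of early progenitors that is also active in proliferating lymphocytes, with a difference of 1.08 (limma adjusted p = 0.259). Its lowest day 5 array, at 8.61, lay below the day 3 array of replicate 2 at 8.94. The day 3 array of replicate 2 carried part of these values. Without it the globin and heme list had a median of −0.75 with 7 genes lower, the membrane list −0.88 with 8 genes lower, and the transcription factor and enzyme list −0.87 with 23 genes lower. Without the day 5 array of replicate 6 the counts were 11, 10 and 24.

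Further genes with large lower differences outside these lists were RNF152, a ubiquitin ligase of lysosomes, at −3.60 (SE 0.50, limma adjusted p = 0.0234), and ACSL6, a long-chain acyl-CoA synthetase found in red cells, at −3.11 (SE 0.41, adjusted p = 0.0188). Both were well above background on all 4 day 3 arrays but on only 1 of the 6 day 5 arrays, so the day 5 levels behind these sizes are mostly background signal. Probes that the array design names PGA4 and FERD3L differed by −3.76 and −2.54 (limma adjusted p = 0.0345 and 0.00937). These are names of a stomach protease and of a transcription factor of the nervous system. What these probes measure in blood was not tested. These 4 probes were named by a rule that required days without overlap and 4 lower same-numbered pairs, so both hold by selection. Of 3 further probes that the design names PGA4, 2 were not above background on any day 5 array, and the other differed by −0.33 (SE 0.31, limma adjusted p = 0.758) and overlapped.

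Platelet genes were lower together. None of the 15 tested adhesion receptors and none of the 38 tested granule, cytoskeleton and lineage genes had a difference above 0. The adhesion receptors had a median of −1.46, with 14 of 15 lower at an unadjusted p under 0.05, and the days separated in 7 (GP1BA, GP5, ITGB3, GP9, SELP, ITGA2B and PEAR1). The exception was CD36, a scavenger receptor also carried by monocytes, at −0.51. The granule, cytoskeleton and lineage genes had a median of −1.30 with 32 of 38 lower, and the days separated in 18. Among all genes 7.46% were lower and 2.64% separated in that direction. PPBP was the only gene of both lists that passed the threshold. Without the day 5 array of replicate 6 the counts lower were 13 and 32, and without the day 3 array of replicate 2 they were 11 and 31.

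PF4, the granule chemokine platelet factor 4, read 18.20, 17.95, 18.06 and 17.48 at day 3 and ran from 15.46 through 16.16 to 16.51 at day 5, a difference of −1.91 (SE 0.25, limma adjusted p = 0.0172). ITGB3, the beta chain of the fibrinogen receptor, read 8.04, 7.26, 7.17 and 7.15 at day 3 and ran from 4.65 through 5.58 to 6.09 at day 5, a difference of −1.84 (SE 0.30, adjusted p = 0.0451). ITGB3 was well above background on 4 of the 6 day 5 arrays. Its partner ITGA2B differed by −1.52 (SE 0.32, adjusted p = 0.095). In all 3 genes every day 5 array lay below every day 3 array. The von Willebrand factor receptor was lower in each measured subunit, with GP1BA at −2.47, GP5 at −2.09 and GP9 at −1.71 (limma adjusted p = 0.126, 0.056 and 0.0611). GP1BA was well above background on 3 of the 6 day 5 arrays. CMTM5, a membrane protein abundant in platelets, differed by −2.32 (SE 0.42, adjusted p = 0.0641) and TUBB1, the platelet beta tubulin, by −1.60 (SE 0.42, adjusted p = 0.186), both without overlap. LTBP1, which holds latent TGF-beta, differed by −1.45 without overlap.

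**Figure D4:**
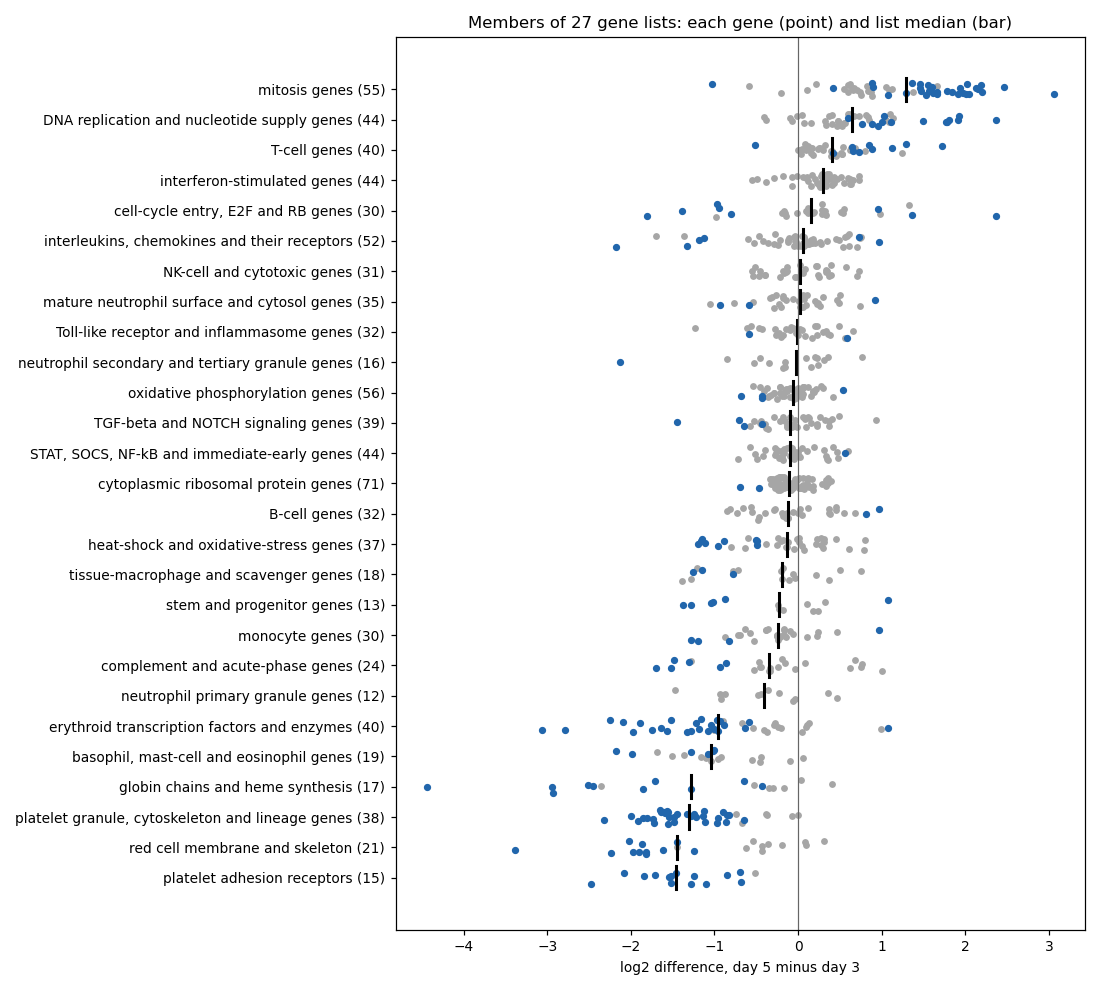
Log2 differences of day 5 minus day 3 (horizontal axis) for the tested genes of each gene list (vertical axis), with each point a gene, blue where its unadjusted limma p was under 0.05 and grey otherwise, a black bar at the list median and the number of genes tested in brackets. Platelet lists had medians of −1.46 and −1.30 and the mitosis list 1.30, against −0.01 over all genes.

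Genes of cell division were higher at day 5, none past the threshold. The mitosis list had 55 tested genes with a median of 1.30, of which 30 were higher and 1 lower at an unadjusted p under 0.05. The days separated in 10 (CCNB1, TPX2, CCNA2, ECT2, KIF11, MELK, UBE2C, DLGAP5, FOXM1 and CEP55), all higher at day 5, and all 4 same-numbered pairs were higher in 38 genes, where 12.2% of all probes were. The gene lower at an unadjusted p under 0.05 was PRC1, a cytokinesis protein, at −1.03, named after its value was seen. The list of DNA replication and nucleotide supply had 44 tested genes with a median of 0.64, of which 14 were higher and 0 lower, and the days separated in 5 (DUT, RFC3, UHRF1, POLA1 and E2F8). Beside both lists, 3.66% of all genes were higher and 7.46% lower at that p, and 0.786% separated as higher.

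FOXM1, the transcription factor of the G2 and mitosis genes, read 4.92, 6.33, 6.73 and 6.29 at day 3 and ran from 7.12 through 7.70 to 10.65 at day 5, a difference of 2.18 (SE 0.67, limma adjusted p = 0.262). E2F8, an atypical E2F factor, read 2.65, 4.53, 5.24 and 5.06 at day 3 and ran from 5.66 through 5.84 to 9.61 at day 5, a difference of 2.37 (SE 0.83, adjusted p = 0.353). UBE2C, the ubiquitin-conjugating enzyme of the anaphase-promoting complex, read 7.26, 8.42, 8.55 and 7.91 at day 3 and ran from 8.67 through 9.63 to 12.56 at day 5, a difference of 2.01 (SE 0.66, adjusted p = 0.314). In each the days did not overlap, and the highest day 5 array was replicate 4. E2F8 was well above background on 2 of the 4 day 3 arrays, so part of its day 3 level is background signal. UHRF1, a ubiquitin ligase of maintenance DNA methylation, differed by 1.80 and the kinetochore scaffold KNL1 by 1.53 (limma adjusted p = 0.293 and 0.262). A second KNL1 probe differed by 0.44 (limma adjusted p = 0.807) and overlapped. It was well above background on 0 day 3 arrays and on 3 of the 6 day 5 arrays.

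Some division genes were not well above background on any day 3 array and have only a bound there. CEP55, a midbody protein of late cytokinesis, was at least 1.95-fold higher at day 5 (limma adjusted p = 0.104), BIRC5, the survivin subunit of the chromosomal passenger complex, at least 2.05-fold (adjusted p = 0.33), ECT2, the exchange factor that starts cytokinesis, at least 2.03-fold, and POLA1, the catalytic subunit of DNA polymerase alpha, at least 2.27-fold (adjusted p = 0.313). For the bound, the probe's day 3 signal was raised on each array to that of the dimmest probe still marked above background, wherever it was lower. Each bound is on the difference of the day means and not on every array. BIRC5 overlapped between the days and was well above background on 3 of the 6 day 5 arrays. Within slide 4 the log2 difference was 0.59 for BIRC5 and 0.32 for POLA1, and it was 2.09 for CEP55.

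Single arrays moved these counts and medians. The mitosis list means were 6.88, 7.47, 7.61 and 7.28 on the day 3 arrays of replicates 1, 2, 4 and 7, and 7.89, 8.29, 9.03, 10.25, 8.05 and 7.76 on the day 5 arrays of replicates 1, 2, 3, 4, 6 and 7, so that the days did not overlap. The lowest was replicate 1 of day 3 and the highest replicate 4 of day 5. Without the former, 12 mitosis genes and 2 replication genes were higher at an unadjusted p under 0.05. With any 1 of the others left out the counts were 22 to 32 and 6 to 16, and the replication count was 6 without replicate 2 of day 3 or replicate 3 of day 5 and 9 without replicate 4 of day 3. Without replicate 4 of day 5 the counts were 26 and 12, and the medians were 0.86 and 0.36. Without replicate 6 of day 5 the counts were 32 and 14. Separated genes, whose number can only stay or grow when an array is left out, were 10 to 20 for mitosis and 5 to 10 for replication, with 20 and 10 without replicate 7 of day 3, 17 and 8 without replicate 7 of day 5, and 16 and 9 without replicate 4 of day 3. Within slide 4 the medians were 0.76 for mitosis and 0.37 for replication, and between slides 5 and 6 they were 1.26 and 0.69.

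Genes that govern entry into the cycle were divided. Of 30 tested, 3 were higher (E2F1, MYBL1 and E2F8) and 5 lower (TFDP2, CDKN1A, CDK4, CDKN2D and CCND3) at an unadjusted p under 0.05, and the median was 0.15. Without the day 3 array of replicate 1 the number higher was 1. Among all genes 3.66% were higher and 7.46% lower. TFDP2, the dimerization partner of E2F factors that is abundant in red cell precursors, had 2 tested probes. The brightest read 11.07, 14.19, 12.47 and 12.38 at day 3 and ran from 9.79 through 10.92 to 11.28 at day 5, a difference of −1.80 (SE 0.53, limma adjusted p = 0.231) with overlap. The other differed by −2.09 (SE 0.29, adjusted p = 0.0234) without overlap.

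CDKN1A, MDM2 and EDA2R, genes known to respond to radiation, took different courses. CDKN1A, the inhibitor of cyclin-dependent kinases known as p21, read 15.26, 15.14, 15.31 and 14.86 at day 3 and ran from 13.15 through 13.79 to 14.33 at day 5. The difference was −1.39 (SE 0.23, limma adjusted p = 0.0459), short of the threshold, with no overlap between days and all 4 pairs lower. Before irradiation CDKN1A ran from 11.31 to 12.19, below every array of both days. MDM2, a ubiquitin ligase, ran from 10.81 to 11.36 at day 3 and from 10.74 to 11.69 at day 5, a difference of 0.19 (SE 0.21, adjusted p = 0.789). EDA2R, an ectodysplasin receptor, differed by −0.34 (SE 0.43, adjusted p = 0.83). In both MDM2 and EDA2R the days overlapped.

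T-cell genes were slightly higher at day 5, with 38 of 40 tested genes above 0 and a median of 0.41. At an unadjusted p under 0.05, 9 were higher and 1 lower, against 3.66% and 7.46% of all genes. The lower one was TBX21 at −0.52, the factor of cytotoxic and type 1 helper T cells. NK cells also use TBX21, which was named after its value was seen. ICOS, the inducible costimulator of activated T cells, read 7.95, 8.51, 8.12 and 8.44 at day 3 and ran from 9.11 through 9.38 to 10.55 at day 5, a difference of 1.29 (SE 0.28, limma adjusted p = 0.104). Every day 5 array lay above every day 3 array in ICOS and in TRAT1, a T-cell receptor adaptor, and in no other gene of the list, while without 1 array the number was 2 to 6, with 6 without replicate 2 of day 3 and 5 without replicate 7 of day 3. IL7R, the interleukin 7 receptor, read 11.98, 11.99, 11.38 and 12.08 at day 3 and ran from 12.06 through 12.69 to 12.82 at day 5, a difference of 0.72 (SE 0.21, adjusted p = 0.229). FOXP3, the factor of regulatory T cells, was not well above background on any day 3 array and was at least 2.13-fold higher at day 5 (adjusted p = 0.228). CTLA4 had a difference of 1.24 with overlap, and its highest array, at 10.54, was day 5 replicate 4. Without that array the difference was 0.60. CD3D, the receptor chain that marks T cells in general, differed by 0.10 (SE 0.36) and CD4 by 0.00 (SE 0.36).

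NK-cell genes showed no common direction, and B-cell genes leaned slightly lower. Of 32 tested B-cell genes 12 were above 0 and 20 below, with a median of −0.13, and the defining markers MS4A1, CD79A and CD79B differed by −0.55, −0.39 and −0.20 (SE 0.44, 0.31 and 0.36). Those higher at an unadjusted p under 0.05 were CR2, complement receptor 2, at 0.97 and BTLA, an inhibitory receptor that T cells also carry, at 0.81. They are 2 of the 32, where 3.66% of all genes were higher, and 0 were lower, where 7.46% were. The B-cell medians of the pairs were −0.35, −0.28, −0.06 and −0.14 for replicates 1, 2, 4 and 7. In all 4 pairs 9 of the 32 were lower and 3 higher, where 12.8% and 12.2% of all probes were. The B-cell median was −0.46 within slide 4 and 0.09 between slides 5 and 6. With 1 array left out it ran from −0.24 (without replicate 3 of day 5) to 0.04 (without replicate 1 of day 3). MS4A1 ran from 10.92 to 12.17 before irradiation, from 6.98 to 8.75 at day 3 and from 5.85 to 8.07 at day 5. The NK-cell and cytotoxic list had a median of 0.03 over 31 genes, with none at an unadjusted p under 0.05. GNLY (granulysin) and NKG7 differed by −0.54 and −0.52, and GZMK (granzyme K) by 0.72, each with overlap.

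Monocyte genes were slightly lower at day 5, with 25 of 30 tested genes below 0 and a median of −0.25, or −0.12 without the day 3 array of replicate 1. Of these 30, 12 were lower in all 4 same-numbered pairs, where 12.8% of all probes were, and the medians of the pairs were −0.46, −0.15, −0.66 and −0.29 for replicates 1, 2, 4 and 7. At an unadjusted p under 0.05, CD68, HMOX1 and TNFSF13 were lower and CCR2 was higher. These are 3 and 1 of the 30, where 7.46% of all genes were lower and 3.66% higher, and the days separated in 0. The number lower was 6 without the day 3 array of replicate 2 and 5 without the day 5 array of replicate 6. CD68, a lysosomal protein of monocytes and macrophages, read 11.78, 10.85, 11.99 and 12.01 at day 3 and ran from 9.39 through 10.10 to 11.61 at day 5, a difference of −1.29 (SE 0.41, limma adjusted p = 0.296). All 4 same-numbered pairs were lower in CD68, though the days overlapped. HMOX1, heme oxygenase 1, differed by −1.19 (SE 0.39, adjusted p = 0.305). The general monocyte markers CD14, FCN1 and VCAN differed by −0.09, −0.57 and −0.24, and the neutrophil markers CSF3R, CXCR2, FPR1, S100A12 and MMP9 by 0.10, −0.07, 0.01, 0.05 and −0.18 (SE 0.24, 0.42, 0.36, 0.58 and 0.41). For CXCR2, 1 day 5 array was marked as an outlier spot and did not enter. Primary granule genes had a median of −0.41 over 12 genes (−0.15 without replicate 1 of day 3 and −0.16 without replicate 4 of day 5), secondary and tertiary granule genes −0.03 over 16 and mature neutrophil genes 0.02 over 35. The pairs went different ways, with mature neutrophil medians of −0.22, 0.58, −0.75 and 0.87 for replicates 1, 2, 4 and 7. With 1 array left out the mature neutrophil median ran from −0.25 (without replicate 7 of day 3) to 0.24 (without replicate 1 of day 3). The secondary and tertiary granule median ran from −0.22 (without replicate 2 of day 3) to 0.11 (without replicate 3 of day 5). TCN1, a secondary granule protein, was well above background on 2 of the 4 day 3 arrays and on no day 5 array, and was at least 1.6-fold lower at day 5 (limma adjusted p = 0.43). STAB1, a scavenger receptor of macrophages, read 8.80, 8.63, 8.66 and 8.53 at day 3 and ran from 6.81 through 7.45 to 7.90 at day 5, a difference of −1.26 (SE 0.23, adjusted p = 0.0641) without overlap. Its list of tissue-macrophage and scavenger genes had a median of −0.20 over 18 genes. In it 3 were lower at an unadjusted p under 0.05, against 7.46% of all genes. Without the day 5 array of replicate 6, whose mean for this list stood apart, the median was −0.56 with 6 genes lower. With 1 of the other arrays left out it ran from −0.51 (without replicate 2 of day 3) to −0.099 (without replicate 1 of day 3), and with the replicate number as a block it was −0.66.

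Basophil, mast-cell and eosinophil genes had a median of −1.04 over 19 tested genes. Of these, 6 were lower at an unadjusted p under 0.05, against 7.46% of all genes. ALOX15, an eosinophil lipoxygenase, read 7.37, 7.58, 7.51 and 8.80 at day 3 and ran from 3.94 through 5.59 to 8.47 at day 5, a difference of −1.99 (SE 0.76, limma adjusted p = 0.416), with 3 of the 6 day 5 arrays well above background, and EPX, eosinophil peroxidase, differed by −1.69 (SE 1.06). These values differed between slides. Within slide 4 its median was 0.10, and between slides 5 and 6 it was −1.74. The same-numbered differences were −0.99, −1.87 and −1.23 for replicates 1, 2 and 4 and 0.23 for replicate 7. The part of the slides and of single arrays in this list was not tested. Without the day 3 array of replicate 7, 2 genes were lower at an unadjusted p under 0.05, without the day 5 array of replicate 3, 3 were, and without that of replicate 7, 12 were.

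Interferon genes varied widely among the arrays of 1 day. The interferon-stimulated list had a median of 0.30 over 44 genes, with 36 above 0 and none at an unadjusted p under 0.05. Leaving out 1 array moved the median from 0.0070 (without replicate 7 of day 3) to 0.63 (without replicate 1 of day 3), and it was 0.017 without replicate 2 of day 3 and 0.59 without replicate 4 of day 3 or replicate 6 of day 5. Within pairs of the same number, 15 of the 44 genes were higher in all 4, where 12.2% of all probes were, and the median with the replicate number as a block was 0.49. IFI44, an interferon-induced protein, read 12.76, 10.04, 12.26 and 10.31 at day 3 and ran from 9.95 through 12.29 to 13.55 at day 5, a difference of 0.73 (SE 0.77, limma adjusted p = 0.785). Its arrays of 1 day spread over more than this difference, while its same-numbered differences were 0.79, 0.97, 1.08 and 2.07, all above 0. The list median was −0.27 within slide 4 and 0.58 between slides 5 and 6. CXCL10, an interferon-induced chemokine, differed by −0.28 (SE 0.88), IL1B by −0.24 (SE 0.44), MYC by 0.60 (SE 0.40) and STAT3 by −0.19 (SE 0.25), each with overlap between days. Medians of the lists of interleukins and chemokines, of STAT, SOCS and NF-kB genes, and of Toll-like receptor and inflammasome genes were 0.05, −0.09 and −0.02. Among complement and acute-phase genes, with a median of −0.35 over 24, TIMP1, an inhibitor of matrix proteases that platelets also carry, read 17.37, 16.12, 16.90 and 16.69 at day 3 and ran from 14.43 through 15.39 to 16.01 at day 5, a difference of −1.52 (SE 0.34, adjusted p = 0.115) without overlap. A second TIMP1 probe differed by −1.58 (SE 0.40, limma adjusted p = 0.167) and overlapped. VWF, von Willebrand factor, differed by −1.48 (SE 0.52, adjusted p = 0.362) and overlapped.

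Ribosomal protein genes had a median of −0.11 over 71 tested genes with 2 at an unadjusted p under 0.05 (both lower). Without replicate 4 of day 3 the ribosomal count was 7 with a median of −0.24, and without replicate 1 or 2 of day 3 it was 0. Oxidative phosphorylation genes had a median of −0.06 over 56, or −0.17 without replicate 3 of day 5 and 0.03 without replicate 1 of day 3. TGF-beta and NOTCH signaling genes had a median of −0.09 over 39. Stem and progenitor genes had a median of −0.23 over 13, with MYB higher and TAL1, GATA2, MEIS1, ERG and KIT lower at an unadjusted p under 0.05. Without the day 3 array of replicate 2 the median was −0.039 with 3 lower. Among all genes 3.66% were higher and 7.46% lower. GATA2, a factor shared with mast cells and megakaryocytes, differed by −1.28 (SE 0.43, limma adjusted p = 0.322). Heat-shock and oxidative-stress genes had a median of −0.13 over 37, of which 9 were lower at an unadjusted p under 0.05, against 7.46% of all genes. PRDX6, a peroxiredoxin, differed by −1.15 (SE 0.22, adjusted p = 0.0797) and GPX4, the lipid hydroperoxide peroxidase, by −1.16 (SE 0.27, adjusted p = 0.129), both without overlap. Of the 13 olfactory receptor genes on the array, a list fixed as a control, none was bright enough to be tested.

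The same-numbered differences show how far the pairs resembled each other. Over all probes, all 4 differences were above 0 in 12.2% and below 0 in 12.8%, all above 1 in 25 probes (0.0922%) and all below −1 in 120 (0.443%). For HBB the differences of replicates 1, 2, 4 and 7 were −3.42, −3.67, −3.21 and −1.76, for ALAS2 −5.28, −6.06, −2.25 and −4.36, and for PPBP −2.08, −1.74, −2.03 and −1.83. PPBP differed by similar amounts in the 4 pairs, while ALAS2 spread over about 4 log2 units. The platelet adhesion list had medians of −1.94, −1.42, −1.37 and −0.50, and 10 of its 15 genes were lower in all 4 pairs. The granule, cytoskeleton and lineage list had −1.70, −1.42, −1.39 and −0.51, with 30 of 38 genes lower in all pairs. The globin and heme list had −2.10, −2.12, −0.64 and −0.78, with 13 of 17 lower in all pairs. Replicate 7 gave the smallest median in both platelet lists. The mitosis medians were 0.98, 0.81, 3.07 and 0.25, with replicate 4 the highest and replicate 7 the lowest, and the DNA replication medians 0.61, 0.37, 1.97 and −0.06. For FOXM1 the differences were 2.2, 1.39, 3.92 and 0.93. T-cell medians were 0.56, 0.46, 0.90 and 0.14, again highest in replicate 4.

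**Figure D5:**
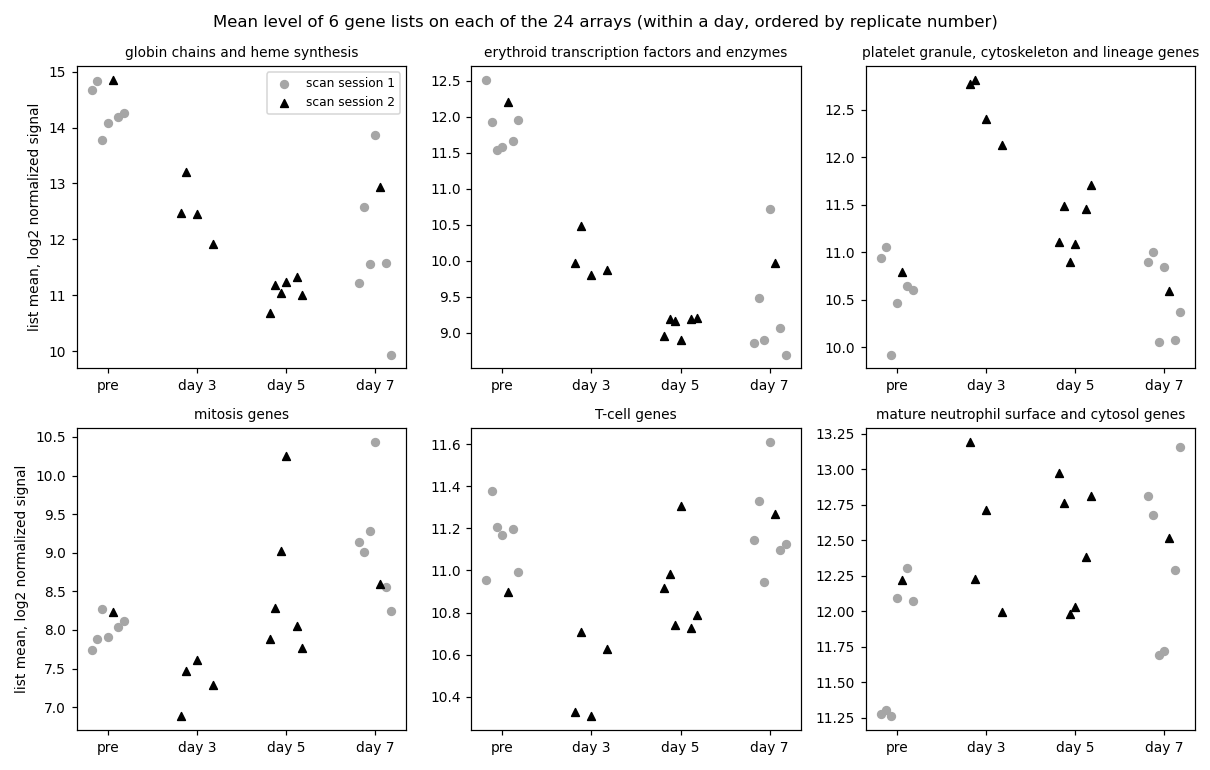
Mean log2 level of selected gene lists (vertical axis, log2 processed signal) on each array before irradiation and at days 3, 5 and 7 (horizontal axis), with 1 point per array, ordered within a day by replicate number, grey circles for scan session 1 and black triangles for scan session 2. The platelet granule, cytoskeleton and lineage list had medians of 10.65, 12.59, 11.28 and 10.59, and day 3 was the highest group.

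Set beside the other groups, most of whose arrays were scanned in another session, the lists took different courses. Median list means before irradiation and at days 3, 5 and 7 were 14.25, 12.46, 11.11 and 11.58 for globin and heme genes, and 10.94, 8.47, 7.53 and 7.47 for red cell membrane genes. For platelet adhesion receptors they were 8.27, 10.60, 9.21 and 8.30, so that day 3 was the highest group and day 5 lay between day 3 and the level before irradiation. PPBP ran from 13.57 to 15.53 before irradiation, below the day 3 range, and every day 3 array of PF4 lay above every array from before irradiation, which ran from 14.72 to 16.29. For mitosis genes the medians were 8.04, 7.37, 8.17 and 9.01, with day 3 the lowest, and for T-cell genes 11.17, 10.48, 10.85 and 11.15. In each case 6 of the 7 arrays before irradiation and of the 7 at day 7 belonged to the other scan session. The array from before irradiation that was scanned with day 3 and day 5, replicate 5, read 14.85 for globin and heme genes, 11.72 for red cell membrane genes, 8.40 for platelet adhesion receptors, 8.24 for mitosis genes and 10.90 for T-cell genes. Each of these lay outside the day 3 range, on the side of the other arrays from before irradiation. With 1 such array, the part of the session was not tested further. Within the days compared here, all arrays shared a session.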

How the data were processed

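The arrays were Cy3-labelled one-colour Agilent arrays of a rhesus design (the methods name a human array), and only the 10 arrays of day 3 and day 5 entered the fit. The authors deposited the scanner output of Agilent Feature Extraction (version 10.7 per the submitters' processing notes), whose processed signal is an intensity with the local background subtracted, and a series matrix of log2 values that the authors normalized to the median array.

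Here the processed intensity was taken to log2, outlier spots were left out, spots of a probe were averaged, and every array was brought to the level of replicate 2 before irradiation, the 12th of the 24 by median over the tested probes, by subtracting the median of their differences (shifts from −1.27 to 0.87). The scanner output gave a symbol to 23052 of the 43603 probes, an accession match to 898 more, and 19653 carried none. Probes marked above background on 4 or more of the 24 arrays were tested with limma 3.58.1 in R 4.3.3 (statmod 1.5.0), two-sided, with Benjamini-Hochberg adjustment and the threshold of the methods, 0.005. No list was tested. A list is described by its counts and median.

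The genes named are the called probes, the 3 largest of each of 28 lists, defining markers and a few preset genes. Also named are the 12 largest differences each way among probes whose days did not overlap. These had to have all 4 same-numbered pairs on that side and every array of the brighter day well above background. Some genes, 1 gene list and the probe sequences are not reported here. Members and lists were chosen with earlier results of these data known, and 47 of the 858 tested list genes are in more than 1 list. The replicate number pairs the arrays: after subtraction of the day means, same-numbered arrays correlated with r from 0.30 to 0.49 over probes in all 4 pairs, against −0.34 to 0.16 for the 20 other combinations. That the numbers mark animals is not stated in the labels, which show the same sex for each number. Nothing states whether samples of 1 day differ in more than the animal, so p-values measure the spread between these samples. Alternatives were background correction by normexp (offset 50), 75th percentile and quantile scaling, the series matrix, other filters on dim probes, other sets of arrays, replicate and slide blocks, unmoderated variances, outlier spots kept, and leaving out each array.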

Additional observations from a re-analysis of the deposited data

Results flagged for a closer look

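Within groups of 4 or 6 arrays, an array far from the others of its day was looked for in 157 named genes and list means on both days. Of 314 groups 17 held one, and chance gives about 1 in 20. On the day 3 array of replicate 2 the mean of the red cell membrane list was 9.34 against 8.40 to 8.51 on the other day 3 arrays, and TLR3, a receptor of double-stranded RNA, read 2.91 (others 6.20 to 6.74). On the day 3 array of replicate 1 the B-cell list mean was 8.44 (others 7.90 to 7.98), the mean of the list on entry into the cell cycle 9.39 (others 9.67 to 9.71), ITGB3 read 8.04 (others 7.15 to 7.26), and FCER1A, the IgE receptor chain of basophils, read 5.81 (others 8.14 to 8.50). On the day 3 array of replicate 4 POLA1 read 3.10 (others 4.28 to 4.44), EGR2, an immediate-early factor, 7.79 (others 7.15 to 7.23), LTBP1 8.86 (others 9.96 to 10.2), and IL7R 11.4 (others 11.98 to 12.08). On the day 3 array of replicate 7 GP1BA read 5.70 (others 7.33 to 7.49) and ALOX15 8.80 (others 7.37 to 7.58).

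At day 5, the array of replicate 6 had the less bright of the probes of ATP2A1, the calcium pump of fast skeletal muscle, at 14.9 against 6.15 to 6.87 on the other day 5 arrays, a tissue-macrophage list mean of 8.78 (others 7.28 to 7.82) and a complement and acute-phase list mean of 10.3 (others 9.58 to 9.78). CTLA4, an inhibitory receptor of activated T cells, read 10.5 on the array of replicate 4 (others 6.24 to 7.23), and A2M, the protease inhibitor alpha-2-macroglobulin, 10.4 on the array of replicate 7 (others 8.11 to 8.82).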

How the results depend on the processing

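PAQR9, HBB, STRADB and PPBP kept their sign under all 25 alternatives tried for each, and passed the threshold in 7 (PPBP) to 9 (PAQR9) of them, though normexp brought PAQR9 to −1.86 and STRADB to −1.35. The number passing an adjusted p under 0.005 in limma was 0 with normexp background correction (634 probes at an unadjusted p under 0.05, 94.0% of them lower), without a filter on dim probes (38.9% lower, against 60.7% in the fit reported), with all 24 arrays in 1 fit, with only the replicate numbers that have both days, with unmoderated variances, with the slide as a block, and on the arrays of the slides that hold 1 day each, a setting chosen after seeing the data. It was 8 with the series matrix. Leaving out 1 array gave 0 to 5: 5 only without replicate 7 of day 5, 1 without replicate 4 or 7 of day 3 or replicate 4 of day 5, and 0 without any of the others. At an adjusted p under 0.05 the count was 48, and 12 (without replicate 4 of day 3) to 139 (without replicate 7 of day 3) with 1 array left out. Of those 139, 133 were lower and the rest higher. With all 24 arrays in 1 fit the count at 0.05 was 69, of which 57 were lower and the rest higher. Any of the 24 arrays as the reference of the shift, chosen after seeing the data, gave 5 to 7 at 0.005.

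The replicate number as a fixed block gave 0 probes under each of the 8 settings it was combined with, against 5 with no replicate block, and as a random block 15. Leaving out each pair in turn under the block also gave 0.

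For gene list medians, normexp gave −0.68 for platelet adhesion receptors, −0.75 for globin and heme genes, −0.37 for red cell membrane genes, −0.64 for erythroid factors and enzymes, 0.088 for T-cell, −0.69 for monocyte, −0.59 for ribosomal protein, −0.51 for oxidative phosphorylation, −0.16 for interleukin and chemokine, −0.39 for STAT, SOCS and NF-kB and −0.49 for heat-shock and oxidative-stress genes. The slide block gave −0.93 for red cell membrane, −0.46 for B-cell, 0.10 for basophil, mast-cell and eosinophil, −0.40 for ribosomal protein and −0.39 for oxidative phosphorylation genes. The slides that hold 1 day each gave −0.86 for globin and heme, −0.51 for stem and progenitor and 0.14 for ribosomal protein genes. Quantile scaling gave 0.11 for ribosomal protein and 0.072 for heat-shock genes, and no filter 0.040 for TGF-beta and NOTCH genes. With 1 array left out the medians ran from −1.62 to −0.75 for globin and heme, −1.67 to −0.88 for red cell membrane and −0.58 to −0.039 for stem and progenitor genes, the first 2 weakest without replicate 2 of day 3. Platelet, red cell, T-cell, mitosis and replication medians kept their sign under all 24 alternatives. The causes were not tested. Dim probes near background limit what day 3 levels of division genes can show.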

Other observations

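Genes of tissues other than blood differed between single arrays. The genes were chosen after their values were seen. On the day 5 array of replicate 6 the 13 tested skeletal muscle genes had a mean of 13.8, and 7 of them were more than 4 log2 units above all other arrays of both days. MYH2, a fast myosin heavy chain, read 12.40 there against at most 4.08 on the other 9 arrays, SLN (sarcolipin) 13.27 against at most 8.89, and MYL1, a fast myosin light chain, 14.33 against at most 8.27. SLN at 8.89 was on the day 3 array of replicate 2, where the highest value on the remaining arrays was 3.75. Of 4 tested connective tissue genes, 3 were highest on the same day 5 array, with a mean of 9.71 against 5.13 to 6.47 on the others. FBN1 (fibrillin 1) read 9.69 and MFAP5 9.96 there. Among the arrays of other days, the one from before irradiation of replicate 5 had a muscle mean of 10.8 and the day 7 array of replicate 2 a connective tissue mean of 9.03. MB (myoglobin) was also at 10.99 on the day 5 array of replicate 4. Without the day 5 array of replicate 6, ATP2A1 differed by 0.64 in place of 2.06 between the days. The part of muscle or connective tissue RNA in other results was not tested.

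Of the 48 probes lower at an adjusted p under 0.05 in limma, 41 had a symbol. Among named ones outside the lists were RAB13, a small GTPase, at −1.50, AQP3, the aquaglyceroporin of red cells, at −1.65, and MFSD2B, the sphingosine phosphate exporter of red cells and platelets, at −1.68 (adjusted p = 0.00937, 0.0234 and 0.028), named after their values were seen.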
